A study of Mus musculus with 6 samples.

Results

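The matricellular proteins and fibronectin were examined in mouse embryonic fibroblasts (MEFs) as 10 genes chosen by symbol: Fn1, the thrombospondins Thbs1, Thbs2 and Thbs3, Tnc, Postn, Sparc and the CCN family genes Nov, Wisp1 and Wisp2. All 10 were found among the 29955 genes of the deposited table, and all 10 had enough reads to be tested. RNA was sequenced from 3 libraries labelled Rnf40+/+ and 3 labelled Rnf40-/-, all from primary MEFs at passage 3. Rnf40 encodes one subunit of the E3 ligase that attaches a single ubiquitin to histone H2B. The knockout cells carried loxP sites around exons 3 and 4 of Rnf40 and a tamoxifen-inducible Cre (CreERT2) in the ubiquitously expressed Rosa26 locus. They were kept in 250 nM 4-hydroxytamoxifen (4-OHT) for 5 days and then for 3 days without it. Whether the Rnf40+/+ cells also carried CreERT2 or received 4-OHT is not given in the sources used here, so the deletion, the Cre and the drug cannot be told apart. Nothing in the labels ties the libraries to separate embryos or cultures, so the p-values measure the spread between these libraries, which may be technical.

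Fibronectin is a large secreted glycoprotein that fibroblasts assemble into fibrils through the integrin made of alpha5 and beta1 subunits, and these fibrils form an early scaffold for collagen and other matrix proteins. Matricellular proteins are secreted into the same matrix, but they act mainly by binding cell surface receptors, growth factors and proteases rather than by bearing load. They are known for high expression in developing and healing connective tissue, and several are classic products of activated fibroblasts.

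Of the 10 genes, 9 were lower in Rnf40-/- MEFs and none was higher. The same call (limma on log2 of the normalized count plus 1, Benjamini-Hochberg adjusted p under 0.05) was made for 24.1% of the 16378 genes tested as lower and for 23.3% as higher. The 10 genes were chosen with earlier results of these data known, so these shares describe the setting and do not test the set. The remaining gene, Nov, did not pass the test. In 4 genes (Postn, Wisp2, Thbs3 and Wisp1) the level fell by more than 1 on the log2 scale, which was the case for 5.72% of all genes tested, while 5.13% rose by as much and none of the 10 did. The median log2 difference of the 10 genes was -0.79, beside -0.0035 over all genes tested. For each of the 9 genes every Rnf40-/- library lay below every Rnf40+/+ library, as it did for 28.7% of all genes tested (27.8% lay above in the same way, and none of the 10). Since bulk RNA was measured, fewer cells expressing a gene and less RNA of it per cell cannot be told apart.

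**Figure D1:**
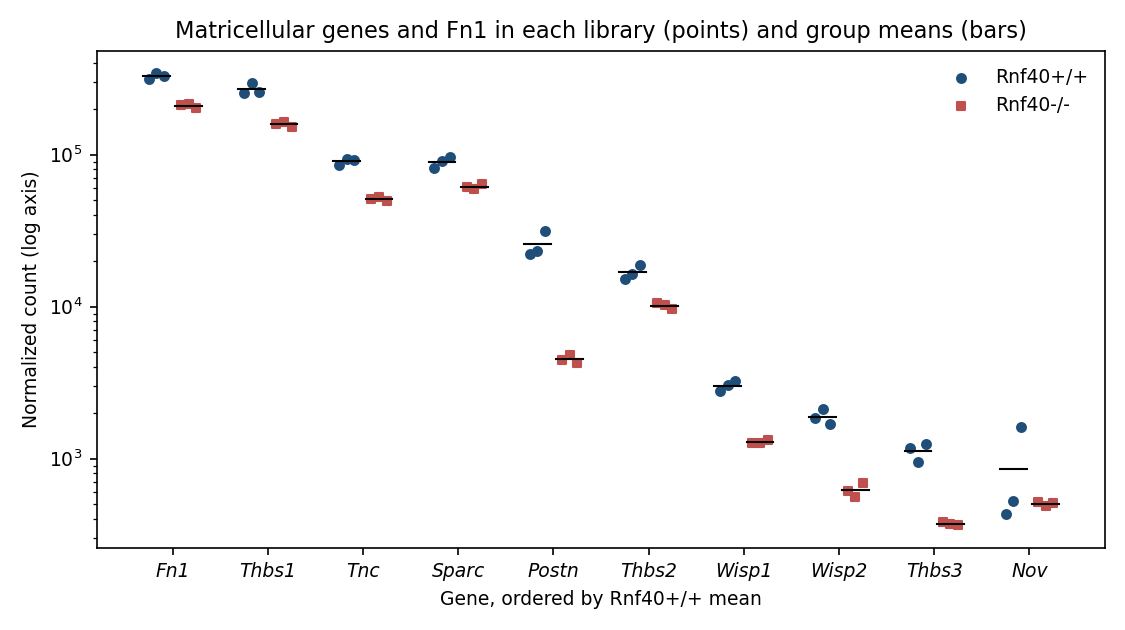
Normalized counts (log axis) of the 10 genes in the 3 Rnf40+/+ libraries (circles) and the 3 Rnf40-/- libraries (squares), with a bar at each group mean. The groups were apart for 9 genes, and for Nov 1 of the Rnf40+/+ libraries stood at 1617 while the other two were close to the Rnf40-/- libraries.

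The libraries held between 17053436 and 26344170 reads on genes in Rnf40+/+ and between 18115481 and 20495627 in Rnf40-/- MEFs, and the 10 genes had at least 355 reads in every library. Rnf40 itself had 1278, 1195 and 1096 normalized counts in Rnf40+/+ and 439, 519 and 487 in Rnf40-/- libraries. The labelled cell type was checked with fibroblast markers, all 9 of which were detected, and 7 of them were lower in Rnf40-/- MEFs by the same test. Their summed level was 354316 to 413828 normalized counts in Rnf40+/+ and 185357 to 199435 in Rnf40-/- libraries, and their median log2 difference of -0.75 was close to that of the 10 genes. Of 6 smooth muscle markers, which activated fibroblasts also express in part, 5 were lower, with sums of 152341 to 166837 and 24315 to 29451. Of 9 macrophage markers 3 were lower and 2 were higher, with sums of 5763 to 9819 and 3691 to 4096. Of 6 endothelial markers 3 were higher and 1 was lower, with sums of 146 to 282 and 234 to 333. The higher ones were Kdr and the defining markers Pecam1 and Cdh5. The last 2 were at most 5.10 in Rnf40+/+ and between 18.9 and 39.7 in Rnf40-/- libraries. The lower one, Emcn, had 136, 158 and 84.6 normalized counts in Rnf40+/+ and 46.9, 50.1 and 68.9 in Rnf40-/- libraries. The endothelial markers thus did not move in 1 direction. Of 7 epithelial markers 4 had enough reads to be tested and of 5 Schwann or neural markers 3 did, and none of these passed with limma. None of the 5 skeletal muscle markers could be tested, among them Myod1, which was at 0 in every library, and Actc1, which was at 937 normalized counts in Rnf40+/+ replicate 1 and at most 10.2 elsewhere. The part of these shifts in the results for the 10 genes was not tested. Over all genes, Rnf40+/+ replicate 3 had a chi-square per gene of 28.8 against replicate 1 and 25.9 against replicate 2. Replicates 1 and 2 had 8.35 between them. The matching correlations of log2 levels were 0.980, 0.986 and 0.985. Rnf40+/+ replicates 1 and 3 also stood apart in single genes, some of which are named beside the results they touch. Among them was Des, a smooth muscle marker called lower, with 431 normalized counts in Rnf40+/+ replicate 1, beside 126 and 114.

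Promoter sequences from RefSeq were found for 5 of the 10 genes, and those of Postn and Thbs3 are shown because both genes fell by more than 1 on the log2 scale. Each sequence is the 250 bases upstream of the start, given 5′ to 3′ on the strand of the gene, and was placed on mm9 by an exact and single match. Capitals mark matches on either strand to 6 promoter motifs. The TATA box, which positions the start of transcription, was searched as TATAAA. The box bound by the factor NF-Y was searched as CCAAT and the GC box, bound by factors of the Sp family, as GGGCGG. The AP-1 motif, bound by Fos and Jun proteins, was searched as TGANTCA, and the MCAT motif, bound by TEAD factors, was searched as CATTCC. The CArG box is bound by serum response factor.
Postn promoter, chr3:54164779-54165028 of mm9, plus strand: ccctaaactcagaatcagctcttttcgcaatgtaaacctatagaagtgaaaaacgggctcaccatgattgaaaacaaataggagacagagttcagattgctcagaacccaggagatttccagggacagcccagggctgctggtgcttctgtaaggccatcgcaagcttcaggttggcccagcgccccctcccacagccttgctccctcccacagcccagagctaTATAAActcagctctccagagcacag
Thbs3 promoter, chr3:89018852-89019101 of mm9, plus strand: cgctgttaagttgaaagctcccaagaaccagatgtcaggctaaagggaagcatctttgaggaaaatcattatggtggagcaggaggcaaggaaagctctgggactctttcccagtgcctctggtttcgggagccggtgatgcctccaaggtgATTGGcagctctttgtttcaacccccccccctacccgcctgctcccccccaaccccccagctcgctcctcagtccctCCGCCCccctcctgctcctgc

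In the Postn window the single match was a TATA box beginning 26 bases before the start, a motif held by 12.4% of the 32851 promoter windows of the same length in the table. The Thbs3 window held no TATA box, but a CCAAT box 98 bases and a GC box 21 bases before the start, both read on the minus strand. These motifs occurred in 33.8% and 32.7% of all windows. Both windows were without a match to AP-1 (6.75% of all windows), MCAT (12.6%) and the CArG box (1.47%). The Postn window held 4 CpG dinucleotides and the Thbs3 window 6, beside a median of 6 over all windows. The window of a second RefSeq start of Postn, which ended 1843 bases before the annotated gene, had no match to any of the motifs. The matches describe the letters only.

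Fn1 was the gene with the most reads in every library of both genotypes. The gene (ENSMUSG00000026193, chromosome 1, 71632094 to 71699774, minus strand; mm9 here and for all genes that follow) overlaps a second gene by its annotation on the opposite strand, and its longest annotated transcript has 46 exons and 8312 nucleotides. Its normalized counts were 315149, 342076 and 327676 in Rnf40+/+ and 212759, 215106 and 202424 in Rnf40-/- libraries. The lowest Rnf40+/+ library thus lay well above the highest Rnf40-/- library, and 64.0% of the Rnf40+/+ mean was left. The log2 difference was -0.64 (standard error 0.11, adjusted p = 0.000463 from limma).

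The thrombospondins are multidomain glycoproteins that bind calcium, heparan sulfate and several receptors. Thbs1 and Thbs2 form trimers and are known as inhibitors of blood vessel growth, and Thbs1 can also activate latent TGF-beta. Thbs3 belongs to the group that forms pentamers.

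Thbs1 (ENSMUSG00000040152, chromosome 2, 117937612 to 117952869) was among the 3 genes with the most reads in every library. It had 254561, 295806 and 259001 normalized counts in Rnf40+/+ and 159566, 164378 and 152834 in Rnf40-/- libraries. Its log2 difference was -0.76 (standard error 0.11, adjusted p = 0.000137 from limma). Thbs2 (ENSMUSG00000023885, chromosome 17, 14802507 to 14831269) had 15184, 16422 and 18875 normalized counts in Rnf40+/+ and 10517, 10297 and 9618 in Rnf40-/- libraries. The log2 difference of -0.73 (standard error 0.08, adjusted p = 2.37e-05 from limma) was close to that of Thbs1.

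Thbs3 (ENSMUSG00000028047, chromosome 3, 89019102 to 89030759) was the least abundant of the 3 and lost the most. It had 1173, 946 and 1244 normalized counts in Rnf40+/+ and 382, 370 and 364 in Rnf40-/- libraries, so that 33.2% of the mean was left. Its log2 difference was -1.58 (standard error 0.10, adjusted p = 2.65e-07 from limma). The 3 Rnf40-/- libraries were close together (SD 9.12), whereas the Rnf40+/+ libraries spread more widely (SD 155). The annotation of mm9 places Mtx1, which encodes a protein of the outer mitochondrial membrane, across Thbs3 on the opposite strand. It was added for its position after the data had been seen. Mtx1 had 703 ± 42.8 normalized counts (SD, n = 3) in Rnf40+/+ and 688 ± 61.2 (SD, n = 3) in Rnf40-/- MEFs, and its log2 difference of -0.03 had a 95% interval from -0.23 to 0.16 (adjusted p = 0.796 from limma). The kit keeps the strand, but the counting setting is not stated, so reads of the overlapping part cannot be told apart with certainty.

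Per kilobase of transcript, Thbs1 made up 93.5% ± 0.892 (SD, n = 3) of the summed thrombospondin level in Rnf40+/+ and 93.7% ± 0.165 in Rnf40-/- MEFs. The share of Thbs2 was 5.78% ± 0.779 and 5.91% ± 0.157. For both genes the difference was within the spread between libraries. The share of Thbs3 was 0.791%, 0.553% and 0.815% in Rnf40+/+ and 0.411%, 0.388% and 0.410% in Rnf40-/- libraries, without overlap.

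Tenascin C, the product of Tnc, is a large, many-armed glycoprotein that weakens the adhesion of cells to fibronectin and is typical of embryonic and wounded tissue. Tnc (ENSMUSG00000028364, chromosome 4, 63620819 to 63681760) had 85609, 92774 and 91655 normalized counts in Rnf40+/+ and 51063, 52466 and 49623 in Rnf40-/- libraries. Libraries of a genotype were close to each other, and 56.7% of the mean was left. The log2 difference was -0.82 (standard error 0.08, adjusted p = 8.17e-06 from limma). A lincRNA is annotated on the opposite strand over part of Tnc.

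Postn had the largest fall of the 10 genes. It encodes periostin, which binds collagen and integrins and is a marker of activated fibroblasts and of the periosteum. Postn (ENSMUSG00000027750, chromosome 3, 54165031 to 54194961) had 22185, 23255 and 31575 normalized counts in Rnf40+/+ and 4454, 4804 and 4234 in Rnf40-/- libraries. Rnf40+/+ replicate 3 was high, at 1.39 times the mean of the other two, but the lowest Rnf40+/+ library was still far above the highest Rnf40-/- library. The level left was 17.5% of the Rnf40+/+ mean. The log2 difference was -2.50 (standard error 0.11, adjusted p = 2.26e-08 from limma), and it was -2.34 when Rnf40+/+ replicate 3 was left out. Of the 76 genes with at least the Rnf40+/+ mean of Postn, itself included, 2 had a difference as low as this. For other abundant genes of the 10 such falls were more common. The same count was 8 of 13 for Sparc, 4 of 12 for Tnc, 30 of 134 for Thbs2 and 1 of 2 for Thbs1. For the less abundant Wisp1, Wisp2 and Thbs3 it was 49 of 1268, 41 of 2277 and 57 of 3849. Over all genes tested the difference of Postn was the 90th lowest.

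Sparc encodes osteonectin, which binds collagen and calcium and takes part in collagen fibril assembly. Sparc (ENSMUSG00000018593, chromosome 11, 55208002 to 55233582) had 81374, 90770 and 96945 normalized counts in Rnf40+/+ and 60977, 59013 and 63559 in Rnf40-/- libraries. The groups were separate, and 68.2% of the mean was left. The log2 difference of -0.55 (standard error 0.09, adjusted p = 0.000435 from limma) was the smallest among the 9 genes that passed the test.

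**Figure D2:**
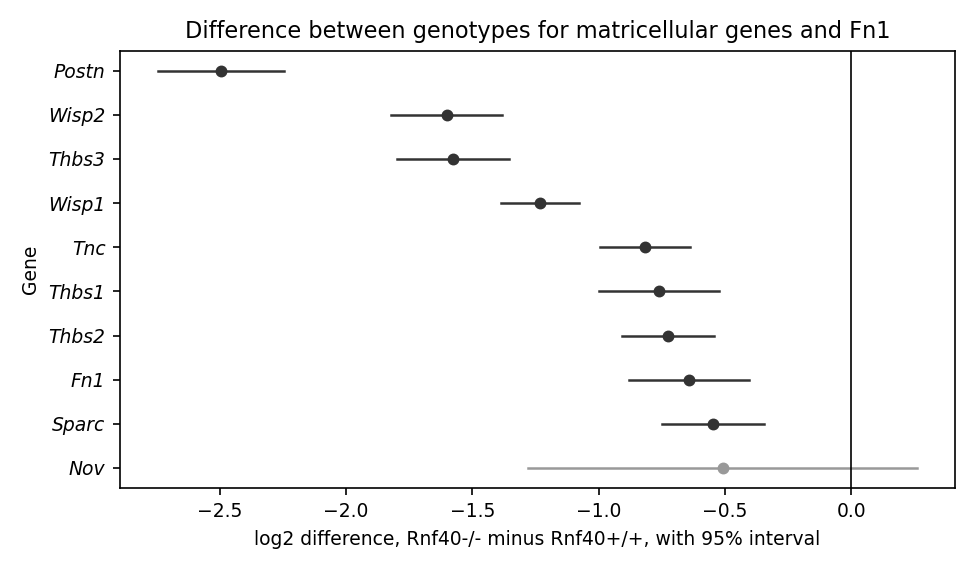
Log2 difference of the normalized count plus 1 (Rnf40-/- minus Rnf40+/+) of the 10 genes, with unadjusted 95% intervals from limma. Black marks an adjusted p under 0.05 and grey the gene that did not pass. Differences ran from -2.50 for Postn to -0.51 for Nov, whose interval reached from -1.28 to 0.26.

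The CCN proteins are short secreted proteins with modules that bind growth factors, heparan sulfate and integrins. Nov is CCN3, Wisp1 is CCN4 and Wisp2 is CCN5, the member that lacks the carboxy-terminal cystine knot module of the others. The Wisp genes are named for their induction by WNT1 signaling.

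Wisp1 (ENSMUSG00000005124, chromosome 15, 66722882 to 66754763) had 2780, 3070 and 3217 normalized counts in Rnf40+/+ and 1260, 1261 and 1330 in Rnf40-/- libraries. The Rnf40-/- libraries were nearly alike and all below the Rnf40+/+ libraries. The log2 difference was -1.23 (standard error 0.07, adjusted p = 1.13e-07 from limma). Wisp2 (ENSMUSG00000027656, chromosome 2, 163646597 to 163658882) had 1845, 2121 and 1694 normalized counts in Rnf40+/+ and 611, 556 and 694 in Rnf40-/- libraries. With a log2 difference of -1.60 (standard error 0.10, adjusted p = 2.16e-07 from limma), 32.9% of its mean was left.

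Nov (ENSMUSG00000037362, chromosome 15, 54577257 to 54585594) lies on the same chromosome as Wisp1. It had 431, 527 and 1617 normalized counts in Rnf40+/+ and 515, 484 and 510 in Rnf40-/- libraries. The groups overlapped, since 1 Rnf40+/+ library was below all Rnf40-/- libraries and another was at 3.37 times the mean of the other two. With a log2 difference of -0.51 and a standard error of 0.35, Nov did not pass (adjusted p = 0.259 from limma). When Rnf40+/+ replicate 3 was left out, the difference was 0.077 with a 95% interval from -0.15 to 0.30 (adjusted p = 0.580 from limma). When Rnf40+/+ replicate 1 was left out, it was -0.88 and passed (adjusted p = 0.0306 from limma). The direction for Nov thus rested on 1 library, Rnf40+/+ replicate 3, and whether Nov passed depended on Rnf40+/+ replicate 1. In Rnf40+/+ replicate 3 the fibroblast marker Lum (248, beside 87.2 and 102), the matrix gene Fbln1 (1386, beside 491 and 517) and the macrophage marker Lyz2 (7440, beside 3945 and 4557) were also high, in normalized counts, and were picked after their values had been seen. Their part in the value of Nov was not tested.

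Of the other CCN genes, Wisp3 had too few reads to be tested, and Ctgf and Cyr61 were picked for their abundance after their values had been seen. Ctgf (CCN2) had 37014 ± 4053 normalized counts (SD, n = 3) in Rnf40+/+ and 35995 ± 816 (SD, n = 3) in Rnf40-/- MEFs, a log2 difference of -0.03 with an interval from -0.23 to 0.16 (adjusted p = 0.772 from limma). Cyr61 (CCN1) had 15181 ± 829 and 16309 ± 81.4 (SD, n = 3 each), a log2 difference of 0.10 (adjusted p = 0.220 from limma). Per kilobase of transcript, Wisp2 made up 4.40% ± 0.154 (SD, n = 3) of the summed level of these 5 CCN genes in Rnf40+/+ and 1.51% ± 0.154 in Rnf40-/- MEFs, and Wisp1 made up 2.40% ± 0.307 and 1.06% ± 0.0195. The shares of Ctgf were 61.8% ± 1.83 and 62.9% ± 0.436, a difference within the spread between libraries. The share of Cyr61 was 30.7%, 29.0% and 30.7% in Rnf40+/+ and 34.2%, 34.0% and 33.2% in Rnf40-/- libraries, higher without overlap. The shares of the 5 genes add up to a fixed whole, so lower levels of Wisp2 and Wisp1 by themselves raise the share of Cyr61. The level of Cyr61 itself did not pass the test.

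To order the 10 genes by level, normalized counts were divided by the length of the longest annotated coding transcript in kilobases, whereas the ranks and counts of genes given above are by reads or normalized counts and not by length. Per kilobase Thbs1 was the most abundant in Rnf40+/+ MEFs at 46134 ± 3871 (SD, n = 3), followed by Fn1 at 39497 ± 1621 and Sparc at 38999 ± 3409. Fn1 and Sparc could not be separated, as the values of Sparc (35380 to 42150) enclosed those of Fn1 (37915 to 41154). Tnc (12667 ± 542), Postn (8017 ± 1605) and Thbs2 (2841 ± 317) came next, each below the range of the gene before it. Wisp2 (1098 ± 126) and Wisp1 (593 ± 43.6) were lower again. Thbs3 (351 ± 48.7) and Nov (299 ± 230) overlapped at the end of the order.

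In Rnf40-/- MEFs the levels per kilobase of Thbs1 (27176 ± 992, SD, n = 3), Sparc (26601 ± 991) and Fn1 (25276 ± 812) overlapped from each gene to the next. Tnc followed at 7184 ± 200. Postn, which stood above Thbs2 in every Rnf40+/+ library, was now below it in every Rnf40-/- library, at 1404 ± 89.8 beside 1713 ± 79.2. Wisp2 (361 ± 40.3) and Wisp1 (252 ± 7.91) kept their places. Thbs3 came last in each library, at 117 ± 2.86, below Nov at 175 ± 5.73.

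**Figure D3:**
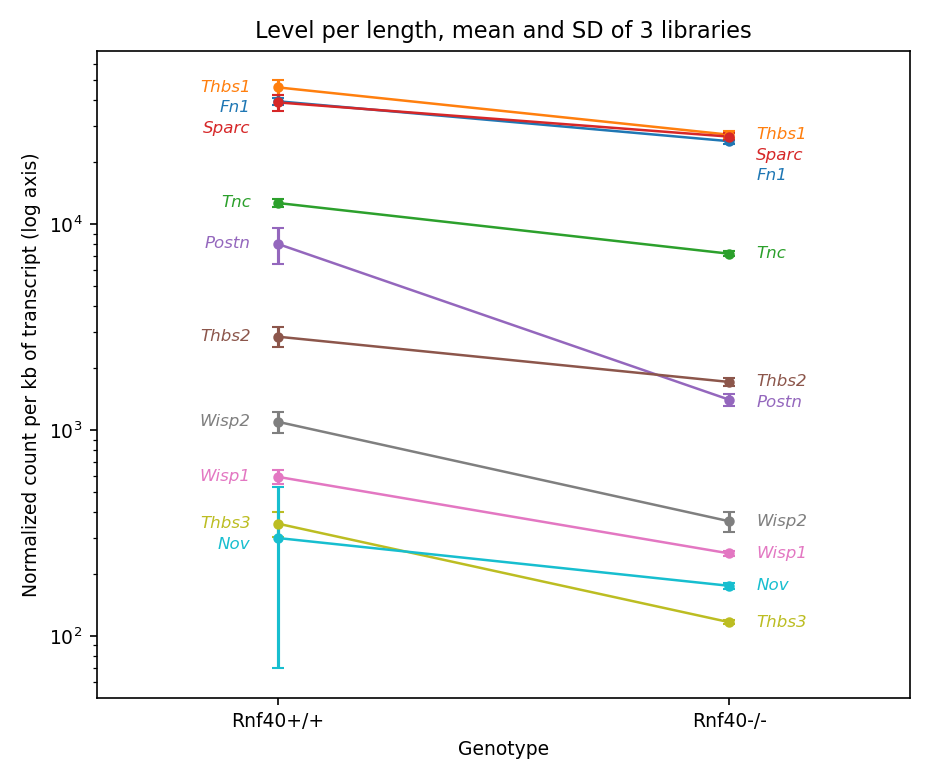
Normalized counts per kilobase of transcript (log axis) of the 10 genes in Rnf40+/+ and Rnf40-/- MEFs, as means with SD of 3 libraries joined by a line. The lines of Postn and Thbs2 cross, with Postn going from 8017 to 1404 and Thbs2 from 2841 to 1713.

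The 10 genes together took 3.83%, 4.09% and 3.96% of all reads on genes in Rnf40+/+ and 2.63%, 2.69% and 2.51% in Rnf40-/- libraries. Most of this was Fn1 and Thbs1, which took 2.87% ± 0.125 (SD, n = 3) of the reads in Rnf40+/+ and 1.93% ± 0.0871 in Rnf40-/- MEFs. The ranges of the genotypes did not overlap for either sum.

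The study's own list of downregulated genes, which was chosen on these libraries and is no independent evidence, holds Thbs3, Postn, Wisp1 and Wisp2. Its list of genes with broad H3K4me3, a mark of active promoters, holds Fn1, Thbs2 and Sparc, all of which fell by less than 1 on the log2 scale. Thbs1 and Tnc, which are not on that list, also fell by less than 1 (-0.76 and -0.82). The share of all genes on the list was not worked out, so these entries only describe the genes. Chromatin was not analysed here.

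Other matricellular genes were taken as a list of 20, of which 15 had enough reads to be tested. With limma 4 were lower (background 24.1%), 3 were higher (background 23.3%) and 8 did not pass, with a median log2 difference of -0.03. Smoc1, a secreted relative of Sparc that binds calcium, fell from 581 ± 81.5 (SD, n = 3) to 260 ± 13.2 in normalized counts, a log2 difference of -1.15 (adjusted p = 6.56e-06 from limma). Tnn, a further tenascin, fell from 48.0 ± 3.48 to 23.4 ± 11.6 (log2 difference -1.10, adjusted p = 0.0146 from limma). Tenascin X went the other way. Its gene Tnxb rose from 87.2, 106 and 147 normalized counts in the Rnf40+/+ libraries to 348, 313 and 345 in the Rnf40-/- libraries, a log2 difference of 1.59 (adjusted p = 1.52e-05 from limma).

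Spp1, which encodes osteopontin, was the most abundant gene of this list per kilobase. It rose from 43584 ± 4091 (SD, n = 3) to 63524 ± 2762 in normalized counts, a log2 difference of 0.55 (adjusted p = 0.000366 from limma). The other genes that passed were Smoc2 (-0.70) and Fstl1 (-0.53), which were lower, and Ecm1 (0.55), which was higher, in log2 differences. Thbs4, Tnr, Spock1, Wisp3 and Vtn had too few reads to be tested. Abundant matricellular genes thus included Spp1 and Ecm1, which rose, Fstl1, which fell, and Ctgf and Cyr61, which did not pass the test.

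Receptors and binding partners of these proteins were taken as a list of 21, of which 20 were tested. With limma 9 were lower (background 24.1%), 5 were higher (background 23.3%) and 6 did not pass, with a median log2 difference of -0.16. Itga5, an integrin subunit that recognizes fibronectin, had 11561, 10818 and 9447 normalized counts in Rnf40+/+ and 4549, 4241 and 4758 in Rnf40-/- libraries. Its log2 difference was -1.23 (standard error 0.08, adjusted p = 2.98e-07 from limma). Its partner Itgb1, the most abundant gene of the list per kilobase, had 89160 ± 6673 and 95164 ± 1678 normalized counts (SD, n = 3 each), and its log2 difference of 0.10 (interval from -0.10 to 0.30) did not pass (adjusted p = 0.411 from limma).

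Tgm2, a transglutaminase that cross-links fibronectin and acts as its coreceptor, fell from 568 ± 64.1 (SD, n = 3) to 181 ± 40.1 in normalized counts, a log2 difference of -1.66 (adjusted p = 3.34e-06 from limma). Itga9, an integrin subunit that binds tenascin C, fell from 280 ± 15.7 to 133 ± 8.31 (log2 difference -1.07, adjusted p = 2.10e-05 from limma). Stab1, a scavenger receptor for SPARC made by macrophages and some endothelial cells, had 296, 323 and 625 normalized counts in Rnf40+/+ and 106, 120 and 144 in Rnf40-/- libraries (log2 difference -1.67, adjusted p = 0.000125 from limma). Its highest value was in Rnf40+/+ replicate 3. Among the Rnf40+/+ libraries, the macrophage markers Lyz2, Cd68, Tyrobp, Fcer1g, Csf1r, Ptprc and Emr1 were also highest there. Cd68, for example, had 427 normalized counts in that library, beside 159 and 189. Itgam was instead highest in Rnf40+/+ replicate 1 (519 normalized counts, beside 303 and 343) and Cd14 in replicate 2 (120, beside 103 and 117). Lyz2 (-1.18), Tyrobp (-1.71) and Fcer1g (-0.71) were lower in Rnf40-/- MEFs, whereas Ptprc (1.37) and Cd14 (0.66) were higher, in log2 differences. The part of macrophages in the values of Stab1 was not tested.

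Cd36, a thrombospondin receptor, rose from 56.0 ± 1.74 (SD, n = 3) to 153 ± 11.3 in normalized counts, a log2 difference of 1.44 (adjusted p = 1.81e-05 from limma). Itga3 passed with a log2 difference of 1.01 (adjusted p = 0.0355 from limma), but its groups overlapped, since Rnf40+/+ replicate 1 had 1960 normalized counts, beside 667 and 490 in the other two and 1663 to 1811 in the Rnf40-/- libraries. The further genes past the threshold were Itga4 (-0.86), Lrp1 (-0.61), Ptprz1 (-0.59), Itga8 (-0.56) and Itgb3 (-0.55), which were lower, and Egfr (0.94), Notch1 (0.83) and Cacna2d1 (0.20), which were higher, in log2 differences. The number of higher genes was 3 without Rnf40+/+ replicate 3 and 3 without Rnf40-/- replicate 1.

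**Figure D4:**
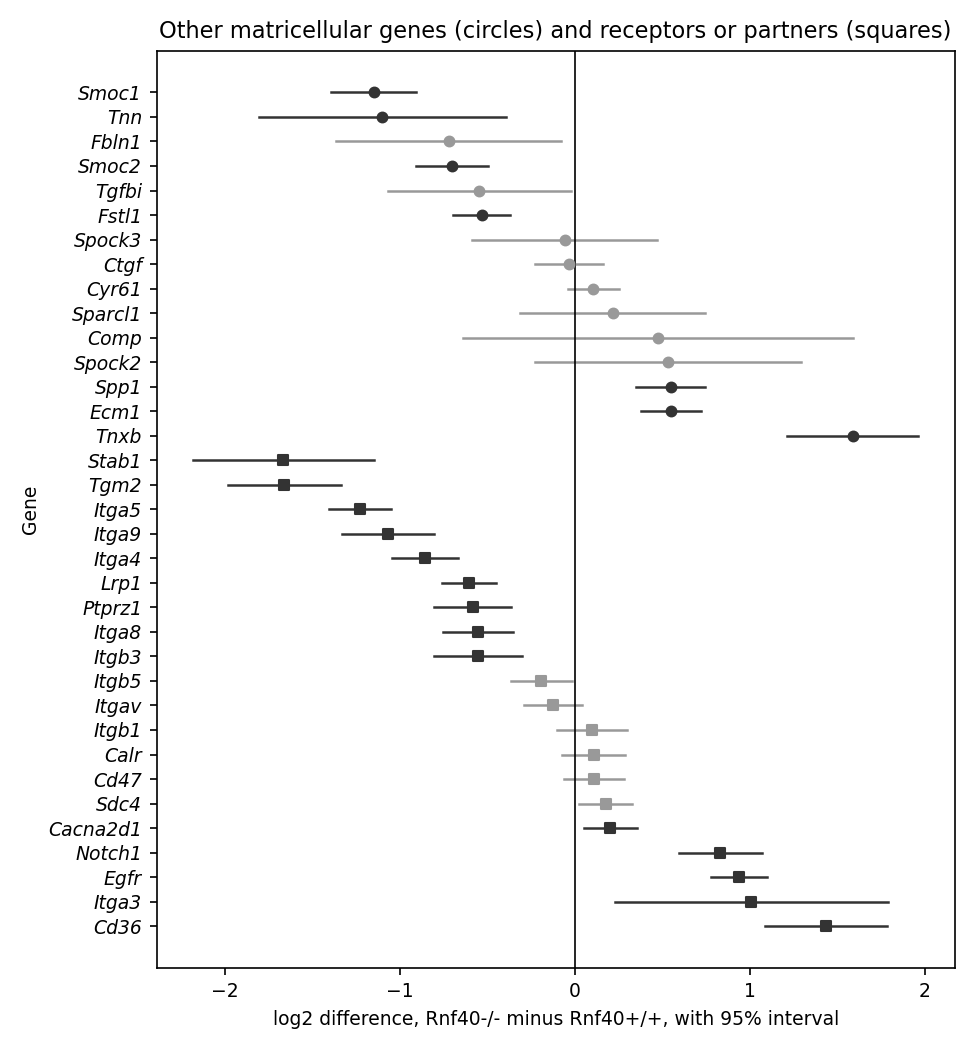
Log2 difference of the normalized count plus 1 (Rnf40-/- minus Rnf40+/+) of the tested genes of the list of other matricellular genes (circles, 15 genes) and of the list of receptors and binding partners (squares, 20 genes), with unadjusted 95% intervals from limma. Black marks an adjusted p under 0.05, which 4 and 9 genes reached as lower and 3 and 5 as higher.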

How the data were processed

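Strand-specific libraries were made from total RNA with a kit of Bioo Scientific. Mapping to mouse transcripts (mm9) and scaling with DESeq were done by the authors, and the submitters' processing notes list Bowtie2 (version 2.1.0) and DESeq (version 1.14.0). The counting tool is not given in the sources used here. The deposited signal is the number of reads of a gene divided by 1 size factor per library, called normalized count here. For all libraries, 100% of values were whole multiples of what 1 read is worth (tolerance 0.01), which gave back the reads and size factors of 0.837 to 1.25.

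Low genes were removed by genotype on these reads (filterByExpr, edgeR version 4.0.16), and 16378 were tested with limma (version 3.58.1; lmFit, then eBayes with trend) as log2(normalized count + 1), a scale that understates changes of low genes. Genotype was the only term, and p-values were adjusted by Benjamini-Hochberg over all genes tested. Means are given with SD over 3 libraries. Exact permutation of 3 against 3 libraries gives no p below 0.1 and was not used. Within a genotype each pair of libraries differed by more than sampling noise (chi-square per gene from 5.33 to 28.8). Intervals cover the spread between libraries, and 3 reads were taken as the limit of detection, at 2.40 to 3.58 normalized counts.

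Positions and lengths are from GENCODE for mm9. Promoters are from RefSeq (GRCm38.p6) and were matched to mm9 by sequence, and motifs were searched in the 250 bases before the start. The 10 genes and the lists were chosen with earlier results of these data known. The genes named are the 10, Rnf40, genes of the 2 related lists with an adjusted p under 0.05 and an absolute log2 difference of at least 1 and the most abundant gene of each list per kilobase, and other genes complete a count, are markers that define a cell type, or were picked after their values had been seen. Alternatives were other scalings, tests of DESeq2 (version 1.42.0) and edgeR, filters, pseudocounts of 0.1 and 10, a replicate block and each library left out. The test scripts were tried on simulated data. R (version 4.3.3) and Python (version 3.11.15) were used. ChIP-seq experiments were not analysed.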

Additional observations from a re-analysis of the deposited data

How the results depend on the processing

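The calls for 9 of the 10 genes kept their direction and their side of the threshold under all 15 alternatives, and 148 of the 150 values of single genes did so. Among the alternatives, size factors of DESeq2 gave the main values unchanged. The deposited counts were already scaled by DESeq, so that agreement was fixed in advance. For these 9 genes the adjusted p was at most 0.00829 in any alternative. The exceptions both concern Nov, whose log2 difference ranged from -0.88 to 0.077 when single libraries were left out. No pairing of the libraries by replicate number was seen. Same-numbered libraries had correlations of their deviations between 0.012 and 0.021, and no library correlated best with its own number. With 3 libraries per genotype, these values cannot exclude a pairing. With the replicate block 9 genes were lower, as without it, and Nov had an adjusted p of 0.0649 from limma. Over all genes 4196 were lower and 4021 higher with the block, beside 3955 and 3809 without it. The number of receptors and partners called higher was between 3 and 5 with each library left out. The share of reads on the 10 genes was 4.17% in Rnf40+/+ and 2.73% in Rnf40-/- MEFs when the reads of the 10 most abundant other genes were left out of the total, a change that follows from the smaller total. Depth did not limit the 10 genes, but 5 of 20 other matricellular genes had too few reads to be tested.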

Other observations

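The genes named next were picked after their values had been seen. Spock1, a proteoglycan of the SPARC family, had 82.4 normalized counts in Rnf40+/+ replicate 1, beside 9.18 and 0.799 in the other Rnf40+/+ libraries and 2.04 to 5.22 in the Rnf40-/- libraries. Tgfbi, which encodes a matrix protein related to periostin, had 2730 normalized counts in the same library and 1003 to 1298 in the other 5. In this library Nov was at 0.402 times the mean of the other Rnf40+/+ libraries, and the other 9 of the 10 genes were between 0.809 and 1.07 times that mean.

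Tnr, a tenascin of the nervous system, had 0, 5.10 and 0 normalized counts in Rnf40+/+ and 9.18, 11.5 and 10.4 in Rnf40-/- libraries. The groups did not overlap, but the reads were too few for the test.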
